A study of Homo sapiens with 12 samples.

Results

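Cytosolic ribosomal protein genes encode the protein components of the ribosomes that translate nuclear mRNAs. They were taken as the protein-coding genes of the count table whose symbol is RPL or RPS followed by a number, with an optional letter A, X, Y or L and an optional further number, plus RPSA, RPLP0, RPLP1 and RPLP2. RPS6K kinases and genes on chromosomes 13 and Y were left out. This gave 83 of the 60671 genes in the table: 45 genes of the large subunit, 31 of the small subunit and 7 paralogs (RPL3L, RPL7L1, RPL10L, RPL22L1, RPL26L1, RPL39L and RPS27L). Of the 83, 82 were among the 18626 genes with enough counts to be tested. RPL10L was not, with 0 counts in every library except K/VP.5 replicates 2 and 4, which had 2 counts each.

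The study examined how splicing of the TOP2A transcript, which encodes DNA topoisomerase IIα, bears on resistance to etoposide, a drug that traps this enzyme on DNA. RNA-seq was done on 3 cell lines. K562 is the parental line, from human chronic myeloid leukemia. K/VP.5 is a clone of K562 that grew out under etoposide, which was given at intervals at first and without a break later. K562/SSedit-2 is 1 clone of K562 in which 2 of the 3 TOP2A alleles were edited at the 5′ splice site of intron 19, after electroporation of Cas9, a guide RNA and a repair template and limiting dilution. All lines grew in DMEM with 10% fetal bovine serum and were harvested in mid-log phase. Because K/VP.5 and K562/SSedit-2 are each a single clone, the effect of drug selection or of the edit cannot be told apart from differences between clones.

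Each line had 4 replicates, 12 libraries in all. Nothing in the labels says that replicates came from separate cultures, so p-values measure only the spread between these samples, which may be technical. Total counts in replicates 1 to 4 were 38404128, 43648830, 36883518 and 40010995 in K562. K562/SSedit-2 had 36568717, 37619488, 32355417 and 34025528, and K/VP.5 39944440, 36365611, 34037063 and 28981722. At this depth 3 counts corresponded to 0.0691 to 0.102 CPM, where CPM stands for counts scaled to a fixed total over the tested genes of a library, after scaling between libraries.

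TOP2A, the edited gene, was measured at 488, 352, 380 and 388 CPM in K562, 203, 177, 179 and 208 CPM in K562/SSedit-2, and 281, 269, 282 and 268 CPM in K/VP.5. The 3 lines did not overlap. Among markers of K562 cells, GATA1, TAL1, KLF1, HBG1, HBG2, HBZ and TFRC were at or above 94.8 CPM in every library. HBE1, an embryonic globin, averaged 0.484 CPM in K562, 1.65 in K562/SSedit-2 and 2.13 in K/VP.5, so it was low. Among markers of other cells, EPCAM was the most abundant, with means of 176, 177 and 129 CPM, and COL1A1 averaged 2.59, 2.16 and 22.5 CPM, both in that order of lines. CD3E, CD14 and ALB had means of 0.285 CPM or less in every line. MS4A1 had 0 counts in all libraries of both derived lines, and MPO had 0 in all libraries of K/VP.5.

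A pair of libraries stood apart from the rest. In K562 replicate 1, 0.700% of counts lay in mitochondrial genes, against 0.278, 0.279 and 0.333% in the other K562 replicates. Across tested genes the standard deviation of its log2 values from the line mean was 0.426, against 0.264 to 0.279 in replicates 2 to 4. Ribosomal protein genes were among those it shifted: they lay above the mean of replicates 2 to 4 by a median of 0.37 on the log2 scale, while all 18626 genes had a median shift of 0.03. Of the 82 genes, 74 were above that mean, 28 by more than 0.5 and 8 by more than 1. The share past 0.5 was 34.1%, against 9.31% of all tested genes. The median shift was 0.52 for the 21 genes whose canonical transcript is up to 600 bases long and 0.25 for the other 61, but the Spearman correlation with length was weak (rho -0.204, n = 82 genes, which are not independent replicates). In K562/SSedit-2 replicate 4, 100% of the 25637 nonzero counts were even numbers, while 44.3 to 45.8% were even in the other libraries. The main counts over the family, and the values of some single genes, are therefore given with and without these libraries. Halving the counts of K562/SSedit-2 replicate 4, an alternative chosen after seeing the data, left the counts of ribosomal protein genes called in both comparisons with K562 as they were and gave 3 higher and 40 lower in K/VP.5 against K562/SSedit-2.

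**Figure D1:**
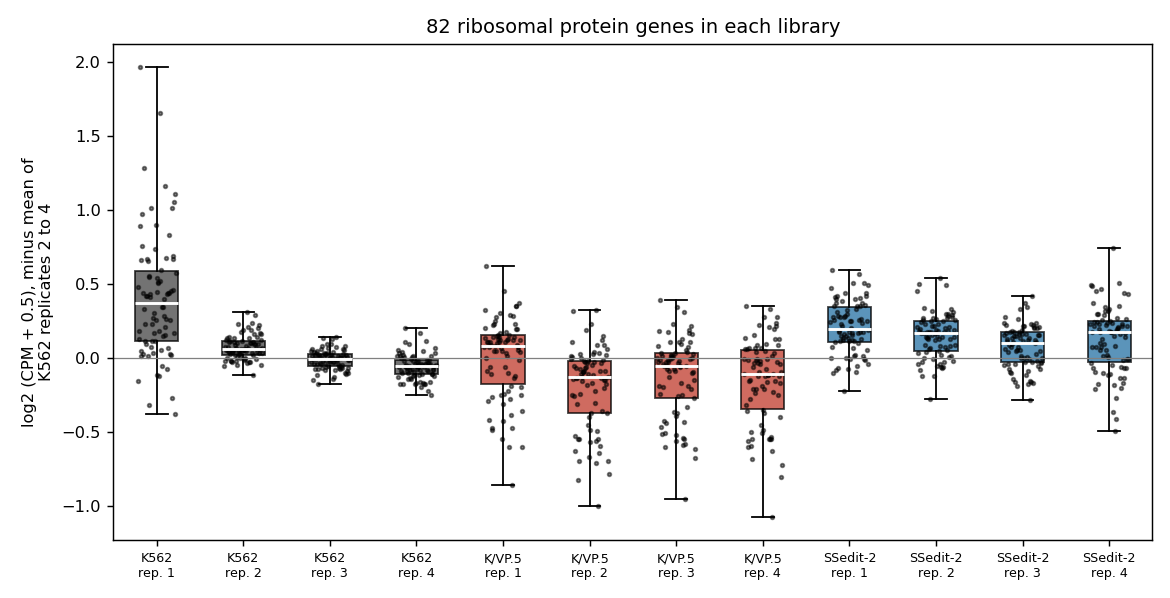
Level of the 82 tested ribosomal protein genes in each library, as log2(CPM + 0.5) minus the mean of K562 replicates 2 to 4. Points are genes, white lines medians, boxes the middle 50% and whiskers the full range; K562 replicate 1 has a median of 0.37.

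The plot of all libraries shows this spread. Over the 82 genes, the standard deviation of log2(CPM + 0.5) between replicates had a median of 0.21 in K562 and of 0.10 in each derived line. The fit shares 1 estimate of spread per gene across the 3 lines, so standard errors are nearly equal in all comparisons.

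As background, a ribosome consists of a small subunit, which binds the mRNA and holds the decoding site, and a large subunit, which forms peptide bonds and carries the tunnel through which the new chain leaves. Each ribosomal protein is made from its own gene, the genes are spread over nearly all chromosomes, and the proteins are needed in equal numbers, apart from the stalk proteins P1 and P2. Most of these mRNAs begin with a C followed by a run of pyrimidines, the terminal oligopyrimidine (TOP) sequence, through which their translation responds to mTOR and LARP1, and inherited loss of single members causes Diamond-Blackfan anemia, a failure of red cell production.

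That start sequence is shown here for some members, picked after the comparisons were seen. RefSeq starts (assembly GRCh38.p14) were found for 61 of the 76 members that are not paralogs (80.3%). Of these 61, 45 (73.8%) had at least 1 listed start with a C followed by at least 4 pyrimidines, against 1404 of all 27305 genes in the same table (5.14%) and 6 of 67 mitochondrial ribosomal protein genes (8.96%). Each line below gives the 15 bases before and the 15 bases from an annotated start, 5′ to 3′ on the gene's strand. Capitals mark a pyrimidine run that begins at that start. The windows lie at chrX:119791616-119791645 (minus strand, RPL39), chrX:154398362-154398391 (plus, RPL10), chr3:197950175-197950204 (plus, RPL35A), chr11:809952-809981 (plus, RPLP2), chr11:17077653-17077682 (minus, RPS13), chr17:8383179-8383208 (minus, RPL26), chr17:39200268-39200297 (plus, RPL19), chr3:12840436-12840465 (minus, RPL32), chr3:23916530-23916559 (plus, RPL15), chr1:6199581-6199610 (minus, RPL22), chr12:56116618-56116647 (plus, RPL41), chr19:39435935-39435964 (minus, RPS16), chr1:153990747-153990776 (plus, RPS27), chr15:63157463-63157492 (minus, RPS27L) and chr6:42879601-42879630 (plus, RPL7L1).
RPL39: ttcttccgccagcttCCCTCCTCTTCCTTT
RPL10: caggcggaggagcgcCTCTTTCCCTTCggt
RPL35A: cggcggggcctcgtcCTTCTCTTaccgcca
RPLP2: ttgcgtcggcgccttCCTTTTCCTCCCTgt
RPS13: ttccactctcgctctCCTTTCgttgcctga
RPL26: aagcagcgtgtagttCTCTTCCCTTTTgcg
RPL19: tgggctctccccttcgcagataatgggagg
RPL32: ggtgaggtgacccttgacctcctgggatcg
RPL15: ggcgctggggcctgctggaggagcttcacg
RPL22: tagttcgctcacctcCCTTTCTaactccgc
RPL41: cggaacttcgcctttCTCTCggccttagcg
RPS16: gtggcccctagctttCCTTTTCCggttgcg
RPS27: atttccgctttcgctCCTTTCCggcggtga
RPS27L: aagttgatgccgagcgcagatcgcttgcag
RPL7L1: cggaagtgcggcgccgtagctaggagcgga

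The upper 9 belong to genes with lower levels in K/VP.5 than K562. Among them, RPL19, RPL32 and RPL15 have no run that begins at the annotated start. Pyrimidine stretches elsewhere in a window were not counted. RPL22, RPL41 and RPS16 belong to genes that were not lower, and RPS27 to a gene whose change depended on 1 library. The last pair belong to paralogs, also without a run from the start, while the paralog RPL22L1 has a run of 6 bases. In RPL39 the run was 19 bases long and went on past the window. RPL23 had no entry in the table. The run was thus present in members that fell and in members that did not: among members that are not paralogs, 15 of 24 with a start (62.5%) had it among those lower in K/VP.5, and 29 of 36 (80.6%) among those not called against K562. In the 300 bases around the start, the letters CCGGAAG, the core bound by ETS factors, occurred on either strand in 22 of the 61 (36.1%), in 29 of the 67 mitochondrial ribosomal protein genes (43.3%) and in 12.2% of all genes of the table, and TATAAA in 5 (8.20%), 3 (4.48%) and 14.0%.

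Together the ribosomal protein genes took 6.36, 5.75, 5.58 and 5.27% of the counts in tested genes in K562 (mean 5.74% ± 0.458, SD, n = 4). They took 5.91, 5.80, 5.78 and 5.65% in K562/SSedit-2 (5.78% ± 0.108) and 5.69, 5.13, 5.34 and 5.33% in K/VP.5 (5.37% ± 0.230). The widest 95% Wilson interval of these shares reached 0.00819 percentage points to either side, which covers counting error only. The range of K562 overlapped both others, and K/VP.5 replicate 1 was the only library of its line to reach the K562/SSedit-2 range. Bulk RNA does not tell fewer cells carrying a transcript apart from less of it per cell.

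Levels between genes were compared per kilobase of canonical transcript, averaged over the 12 libraries, among the 82 tested members. The order pools lines whose levels differ and was not the same in each line. RPL13A, RPS2 and RPL7A were highest at 2519, 2187 and 2161 CPM per kilobase. RPL3L, the muscle paralog of RPL3, was lowest at 0.127, followed by RPS27L at 5.69 and RPL22L1 at 6.79 CPM per kilobase. On merged exons the highest tested members were RPL41 (1013), RPL8 (929) and RPL13A (879), and the lowest RPL3L (0.0990), RPS10 (1.78) and RPL36A (2.15). RPS10 and RPL36A encode core ribosomal proteins. Processed pseudogenes named after RPS10 and RPL36A held 616% and 853% as many counts as the genes themselves, and whether reads were divided between gene and copies was not tested. For RPL17 that value was 171%, for RPS28 59.4% and for RPS2 32.6%. Among tested members, 19 had pseudogene counts above 10% of their own and 41 below 1%. RPL17, RPS10 and RPL26 also had over 50% of their canonical transcript within another gene annotated on the same strand, so their counts are uncertain.

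**Figure D2:**
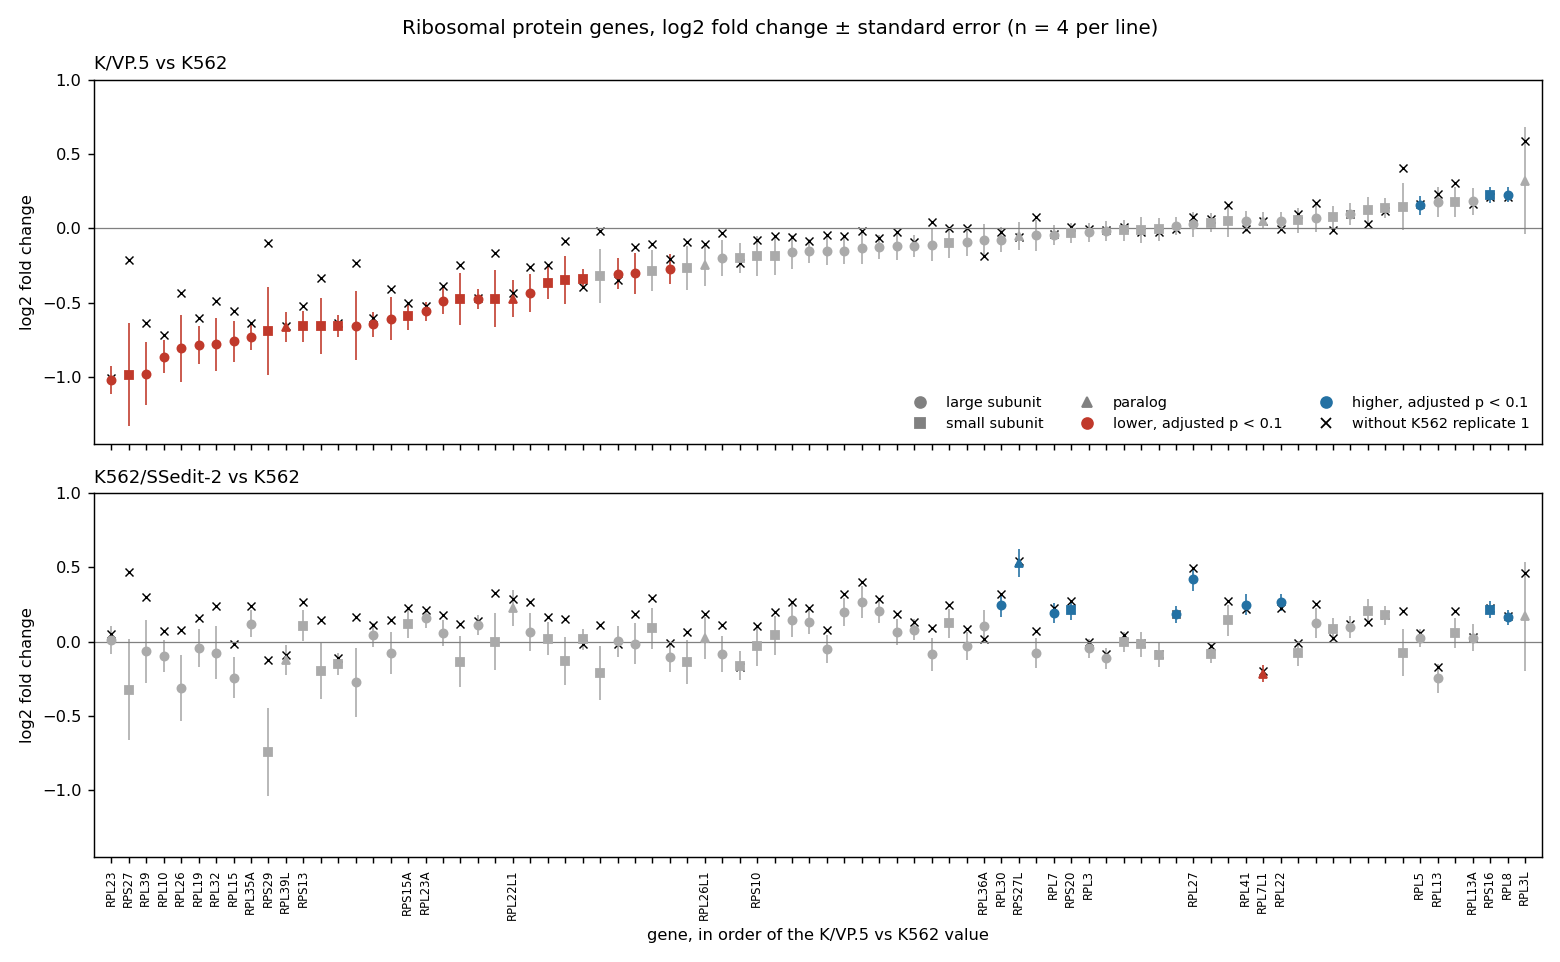
Log2 fold change ± standard error of the 82 tested ribosomal protein genes in K/VP.5 against K562 and in K562/SSedit-2 against K562, in the order of the former (n = 4 per line). Crosses leave out K562 replicate 1, and only members discussed by the naming rule are labelled; the median over genes is -0.15 in the upper and 0.02 in the lower panel.

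K/VP.5 and K562 were compared to see which transcripts differ in the etoposide-selected line. Of the 82 ribosomal protein genes, 31 were lower and 3 higher in K/VP.5 (adjusted p under 0.1 in edgeR's quasi-likelihood test, Benjamini-Hochberg adjusted across 18626 genes, as for every adjusted p here). Of all tested genes, 26.1% were lower and 26.2% higher. The median log2 fold change was -0.15, against 0.01 over all tested genes, and 61 of the 82 values were below 0. With upper-quartile scaling 29 were lower and 8 higher, and the shares of all genes in that fit are not given. Past a fold of 2 lay only RPL23, while 15.6% of all genes were past it. Leaving out K562 replicate 1 gave 28 lower and 7 higher with a median of -0.06, beside 26.5% and 25.9% of all genes. Of the 31, 27 remained, and RPL28, RPS24 and RPS29 were among those lost. Without K/VP.5 replicate 2, 6 were higher. The number past a fold of 2 was 2, 3 and 3 without K562 replicates 2, 3 and 4, 3 without K/VP.5 replicate 1, and 0 without K/VP.5 replicate 4 or with upper-quartile scaling.

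In the plot of fold changes, members of both subunits were among those that fell in K/VP.5. Of the 45 genes of the large subunit, 18 were lower and 2 higher (median -0.15), beside 26.1% and 26.2% of all tested genes. Of the 31 genes of the small subunit, 11 were lower and 1 higher (median -0.19). Without K562 replicate 1 these numbers were 17 and 4 for the large and 9 and 3 for the small subunit, beside 26.5% and 25.9%. The direction of both medians held without it, at -0.06 and -0.05, and with each other scaling the median over the family stayed below 0.

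RPL23 (ENSG00000125691, chr17:38847860-38853764, minus strand) encodes a large-subunit protein that also binds the p53 regulator MDM2. Its level was 521, 553, 451 and 414 CPM in K562, 502, 493, 418 and 543 CPM in K562/SSedit-2, and 259, 233.7, 242 and 222 CPM in K/VP.5. Every K/VP.5 library was lower than every library of the other lines, which overlapped each other. Its log2 fold change in K/VP.5 was -1.02 (SE 0.095, adjusted p 1.9e-07) against K562, -1.004 without K562 replicate 1, and -1.03 against K562/SSedit-2, or -0.98 without replicate 4 of the latter. A two-sided exact permutation test of mean CPM gave p = 0.0286 in both, the smallest that 4 against 4 samples allow, and p = 0.971 between K562/SSedit-2 and K562. The lack of overlap fixes the value of 0.0286, which therefore adds nothing to the ranges.

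**Figure D3:**
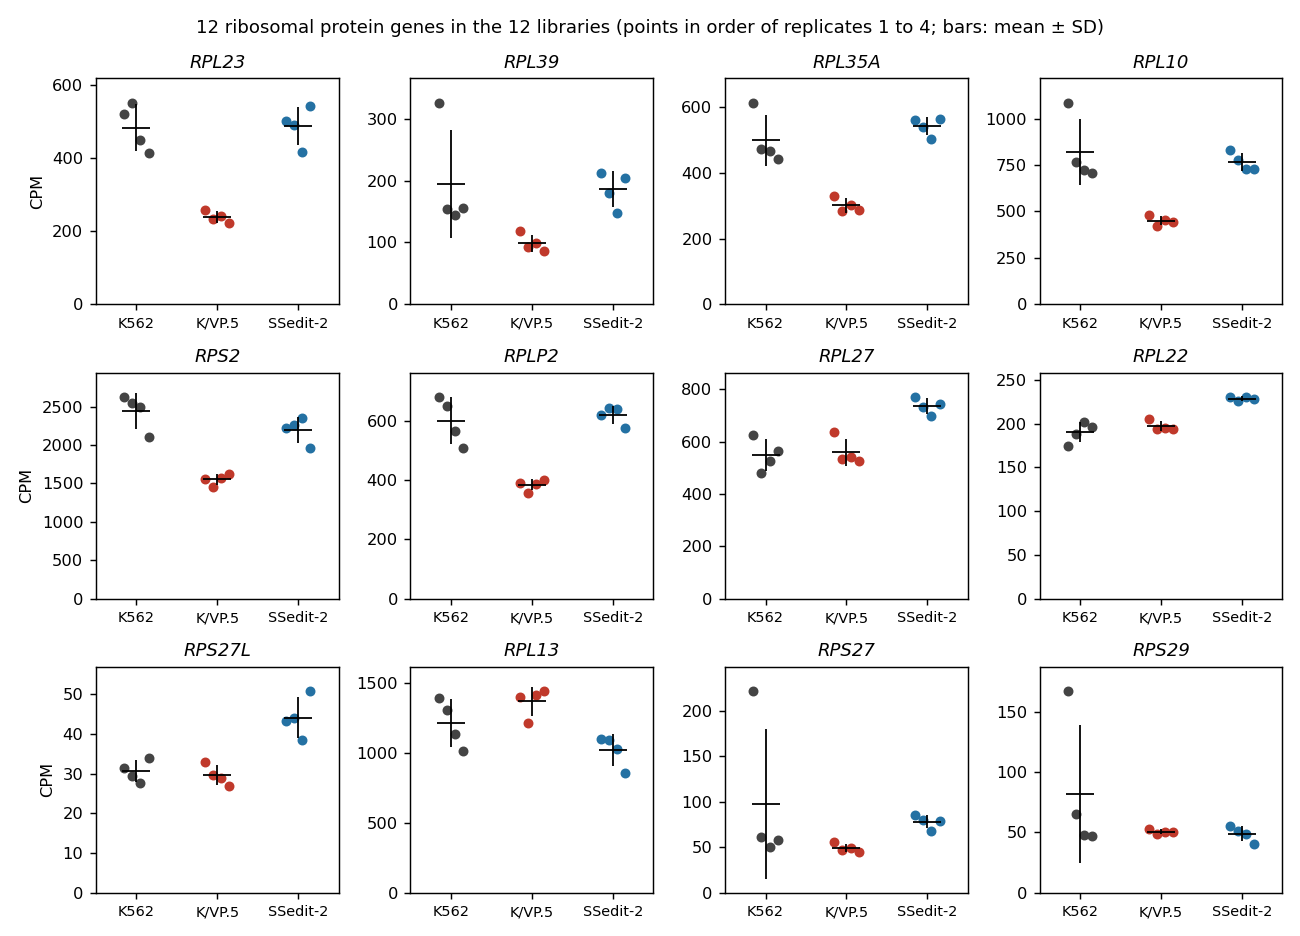
CPM of 12 ribosomal protein genes in the 12 libraries. Points are replicates 1 to 4 from left to right and bars give mean ± SD; RPL23 lies between 222 and 259 CPM in K/VP.5 and at or above 414 CPM in the other lines.

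The tunnel of the large subunit and its exit are lined by RPL4, RPL17, RPL19, RPL23A, RPL24, RPL26, RPL31, RPL35 and RPL39. Of these 9, 6 had fallen in K/VP.5 relative to K562, also without K562 replicate 1. Among all tested genes 26.1% were lower, and 26.5% without that library. RPL39, a very small protein of the tunnel wall, was at 326, 155, 144 and 155 CPM in K562 and 118, 93.0, 98.7 and 86.2 CPM in K/VP.5. The lines did not overlap, but K562 replicate 1 lay far above the others, and the log2 fold change moved from -0.98 (SE 0.21) to -0.63 without it. RPL19 was at 1146, 774, 685 and 697 CPM in K562 and 517, 459, 480 and 463 CPM in K/VP.5, again without overlap. Its log2 fold change was -0.78 (SE 0.13), and -0.60 without K562 replicate 1. RPL26, which lies near the tunnel exit and also takes part in p53 translation, gave -0.81 and, without that library, -0.44. RPL23A, a docking site for the signal recognition particle, had -0.56 (SE 0.066) and -0.52, with K562 at 364, 322, 317 and 306 CPM.

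The stalk recruits translation factors to the ribosome and is made of RPLP0, RPLP1, RPLP2 and, at its base, RPL12. In K/VP.5, 3 of these 4 were lower than in K562, beside 26.1% of all tested genes. RPLP2, given in detail after its values were seen, was at 681, 651, 564 and 508 CPM in K562 and 391, 358, 387 and 401 CPM in K/VP.5, a log2 fold change of -0.65 (SE 0.082, adjusted p 6.9e-06). RPL12 and RPLP1 had -0.61 and -0.27, while RPLP0, which anchors the others, had -0.05 and was not called. RPLP1 was at -0.20 without K562 replicate 1 and was still called.

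Other large-subunit members with low levels in K/VP.5 included RPL10, an X-linked gene whose protein sits near the peptidyl transferase center. Its CPM was 1085, 764, 724 and 706 in K562 and 481, 424, 456 and 441 in K/VP.5, and its log2 fold change -0.86 (SE 0.11), or -0.72 without K562 replicate 1. RPL32 and RPL15, both on chromosome 3, had -0.78 and -0.76, and -0.49 and -0.55 without that library. RPL35A, a Diamond-Blackfan anemia gene, was at 614, 472, 467 and 442 CPM in K562 and 331, 284, 303 and 286 CPM in K/VP.5. None of these 4 genes overlapped between K562 and K/VP.5, but they were picked for large changes in K/VP.5, so this adds nothing to those values.

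On the small subunit, RPS2, also chosen after its values were seen, lies at the entry of the mRNA channel. It was at 2628, 2548, 2496 and 2108 CPM in K562 and 1560, 1452, 1577 and 1622 CPM in K/VP.5. This gave a log2 fold change of -0.66 (SE 0.075, adjusted p 2.1e-06), and -0.64 without K562 replicate 1. Together with RPS3 (-0.34), 2 of the 4 genes listed for the mRNA channel and decoding side were lower, beside 26.1% of all tested genes. RPS15 and RPS23 were not called. RPS13 gave -0.66 (SE 0.10) and RPS15A -0.59 (SE 0.095), both without overlap between the lines. X-linked RPS4X gave -0.66, and -0.33 without K562 replicate 1.

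RPS27 and RPS29, both zinc-binding proteins of the small subunit with short transcripts, were set mainly by 1 library. RPS27 was at 222, 61.1, 50.5 and 57.6 CPM in K562 and 56.1, 47.1, 49.2 and 44.9 CPM in K/VP.5. RPS29 was at 167, 65.6, 47.6 and 47.0 CPM in K562 and 53.1, 48.7, 50.7 and 50.02 CPM in K/VP.5. In both genes the ranges overlapped, and K562 replicate 1 was by far the highest library. Leaving it out moved RPS27 from -0.98 (SE 0.35, adjusted p 0.029) to -0.21 (adjusted p 0.056), and RPS29 from -0.69 (adjusted p 0.068) to -0.10 (adjusted p 0.49).

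The 3 members that rose in K/VP.5 were RPL8, RPS16 and RPL5. RPL8, a protein of the peptidyl transferase region, was at 1857, 1814, 1856 and 1789 CPM in K562 and 2245, 2068, 2127 and 2123 CPM in K/VP.5, without overlap, with a log2 fold change of 0.23 (SE 0.050, adjusted p 0.0013). RPS16, near the decoding site, also gave 0.23 (adjusted p 0.0033). RPL5, which joins RPL11 and 5S RNA in a particle that binds MDM2, gave 0.15 (adjusted p 0.049), with overlapping lines. Its call was lost without K562 replicates 2, 3 or 4 (0.14, 0.13 and 0.10) or K/VP.5 replicate 1 (0.10). RPL11 had -0.13 and was not called. Of the 9 Diamond-Blackfan anemia genes, RPL5 was higher and RPL35A, RPS26 and RPS24 were lower, RPS24 only with K562 replicate 1 included. Without that library 2 were higher and 3 lower. The shares of all tested genes were 26.2% higher and 26.1% lower, and 25.9% and 26.5% without that library.

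**Figure D4:**
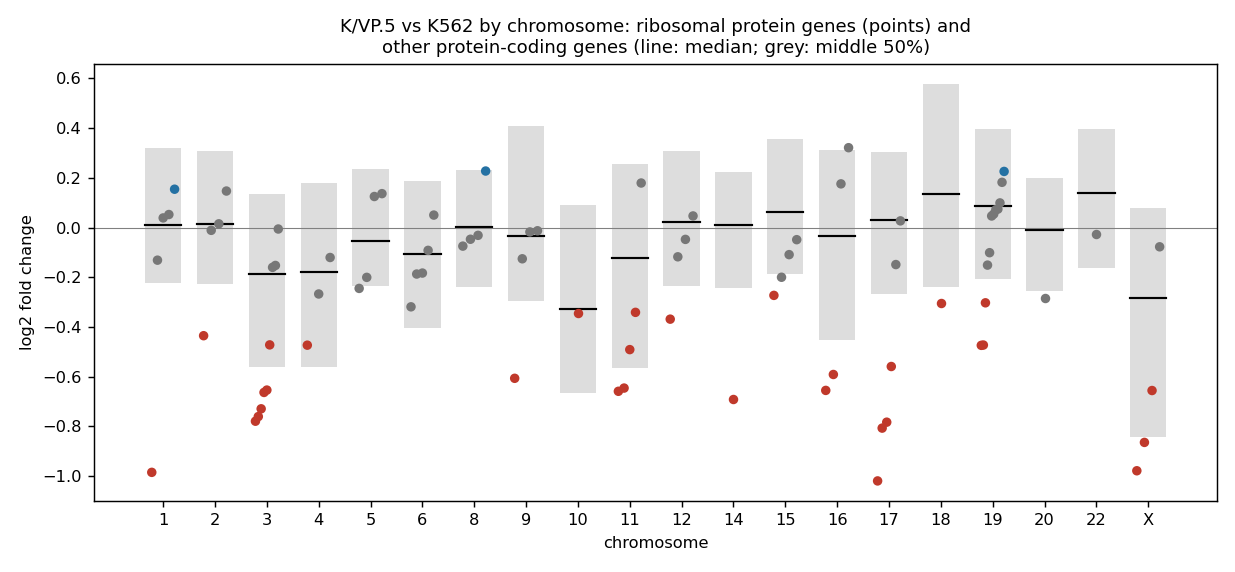
Log2 fold change of ribosomal protein genes (points; red lower, blue higher, grey not called) in K/VP.5 against K562 by chromosome, beside the median and middle 50% of other tested protein-coding genes. On chromosomes 3, 11, 17 and X most members lie below 0.

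The members that fell in K/VP.5 were not spread evenly over the chromosomes, as the plot by chromosome shows. On chromosome 3, 6 of 9 members were lower (median -0.65), and 46.3% of the other 691 protein-coding genes there were lower too (median -0.19). On the X chromosome 3 of 4 were lower (median -0.76), beside 51.8% of other genes there (median -0.29), and on chromosome 11 4 of 5 (median -0.49), beside 41.0% (median -0.12). On chromosome 17 4 of 6 were lower with a median of -0.67, although the other 813 genes of that chromosome had a median of 0.03 and 26.3% of them were lower. On chromosome 19, which holds 12 members, 3 were lower and 1 higher (median 0.05, other genes 0.08, of which 21.3% were lower). Without K562 replicate 1 the medians on chromosomes 3, X, 11 and 17 were nearer 0, at -0.43, -0.48, -0.39 and -0.48, with as many members lower, and on chromosome 19 1 was lower and 2 higher.

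Closer neighbours were examined for RPL23. Within 1 Mb of its start, 30 other protein-coding genes were tested, of which 18 were lower and 3 higher in K/VP.5 against K562, with a median log2 fold change of -0.53. The nearest pair on each side, named by position, were CWC25 (-0.47) and PIP4K2B (-0.56) on 1 side and LASP1 (-1.03) and CACNB1 (-0.76) on the other. RPL19, itself a ribosomal protein gene, is 1 of the 30 and of the 18. In K562/SSedit-2 against K562 the same 30 genes had a median of -0.13, with 5 lower and 1 higher.

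**Figure D5:**
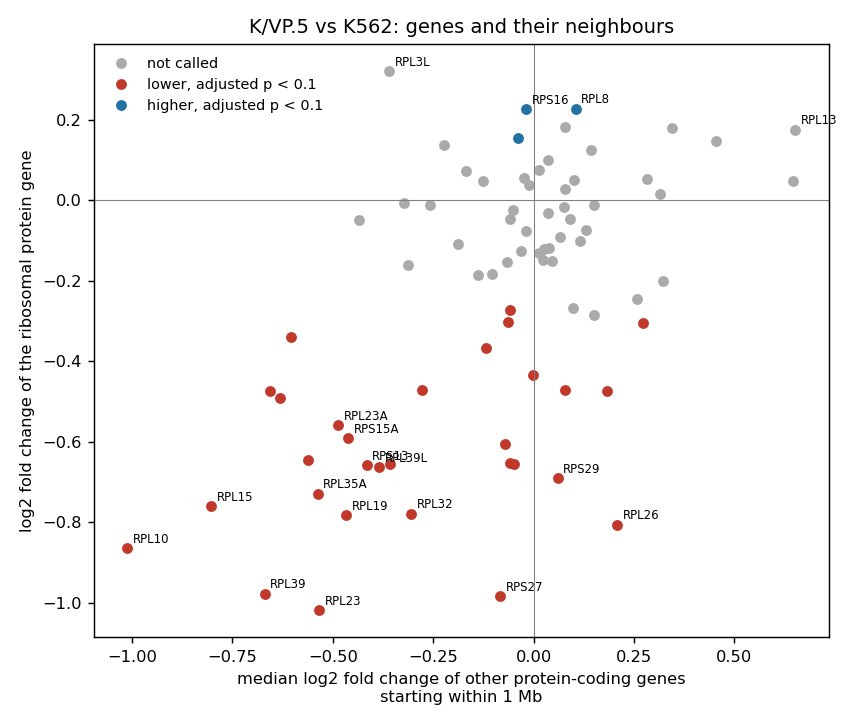
Log2 fold change in K/VP.5 against K562 of each ribosomal protein gene (vertical axis) and the median of other protein-coding genes starting within 1 Mb (horizontal axis), for 79 members with at least 5 such genes. The 22 members with a neighbour median under -0.25 have a median of -0.62, the other 57 of -0.09.

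The same was then described for all 79 members with at least 5 tested neighbours, here without other members (29 genes for RPL23), a description chosen after the values around RPL23 were seen. Of the 79, 22 had a neighbour median below -0.25, and their own median was -0.62, against -0.09 for the other 57. Without K562 replicate 1 there were 19 such members at -0.52, against -0.02 for the other 60. Across the 79 genes the member's value and its neighbours' median had a Spearman rho of 0.485 and a Pearson r of 0.560, and a rho of 0.527 without K562 replicate 1. These points share the same 8 libraries and some share neighbours, so they are not independent. RPL10 had the lowest neighbour median, -1.01 over 46 genes, also without K562 replicate 1 (-1.05). Those of RPL39 and RPL15 were -0.67 over 19 and -0.80 over 6 genes, and -0.61 and -0.51 without that library. The plot of neighbours also holds exceptions. Members near or above 0 with low neighbours included RPL3L (0.32, neighbours -0.36) and RPS27L (-0.05, neighbours -0.44). When K562 replicate 1 was left out, they had 0.59 and -0.06 with neighbours at -0.40 and -0.34. RPL3L had only 14, 8, 10 and 6 counts in K562 and 11, 14, 9 and 9 in K/VP.5. It was not called, so its value is uncertain. On the other side, RPS27, RPS29, RPL26 and RPL12 were low with neighbour medians of -0.08, 0.06, 0.21 and -0.07, and without K562 replicate 1 these 4 members were at -0.21, -0.10, -0.44 and -0.41, so the low values of RPS27 and RPS29 rest in part on that library. These 6 genes were chosen after the values were seen. At the other end RPL13 had neighbours with a median of 0.65 and was itself at 0.18. For K562/SSedit-2 against K562 the rho was -0.0285 over the same 79 genes, and for K/VP.5 against K562/SSedit-2 it was 0.536. DNA copy number was not analysed here, and its part in these values was not tested.

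K562/SSedit-2 and K562 were compared to see what differs in the edited clone. Here 10 of the 82 ribosomal protein genes were higher and 1 lower (adjusted p under 0.1), beside 4.86% higher and 7.79% lower of all genes, with a median log2 fold change of 0.02. None was past a fold of 2 in edgeR's test, whether by adjusted p or at an unadjusted p under 0.05, nor with DESeq2 or limma voom, while 2.06% of all genes were. The number higher depended on single libraries. It was 33 without K562 replicate 1 (all 10 among them), where 9.56% of all genes were higher and 9.94% lower and the median rose to 0.16. It was 6, 6 and 5 without K562 replicates 2, 3 and 4, and 6 without K562/SSedit-2 replicate 1 or replicate 4. The number lower was 2 and 5 without K562 replicates 3 and 4, and 0 without K562/SSedit-2 replicate 2. For these fits, apart from the fit without K562 replicate 1, the shares of all genes are not given. Without both K562 replicate 1 and K562/SSedit-2 replicate 4, 29 were higher and 1 lower, beside 7.59% and 7.62% of all genes. With the replicate number as a block, 13 were higher and 2 lower, beside 6.35% and 10.1%. RPL11, RPL35 and RPL38 joined the higher genes, and RPL13 (-0.25, adjusted p 0.090) the lower.

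The largest rise in K562/SSedit-2 was that of RPS27L, a p53-responsive paralog of RPS27. It was at 31.4, 29.5, 27.5 and 34.0 CPM in K562, 43.2, 44.1, 38.5 and 50.8 CPM in K562/SSedit-2 and 33.0, 29.6, 28.9 and 26.9 CPM in K/VP.5. K562/SSedit-2 did not overlap either other line, and its log2 fold change against K562 was 0.53 (SE 0.094, adjusted p 0.0020), or 0.54 without K562 replicate 1. RPL27, of the large subunit, was at 627, 481, 524 and 564 CPM in K562 and 771, 733, 697 and 743 CPM in K562/SSedit-2. It gave 0.42 (SE 0.082, adjusted p 0.0039). RPL22, which also binds RNAs outside the ribosome, was at 175, 188, 202 and 197 CPM in K562 and at 231, 226, 231 and 229 CPM in K562/SSedit-2, with 0.27 (SE 0.058, adjusted p 0.0090). Neither gene overlapped between these lines.

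Smaller rises were found for RPL30 (0.25), RPL41 (0.25), RPS16 (0.22), RPS20 (0.21), RPL7 (0.19), RPL37A (0.18) and RPL8 (0.16). All 4 members on chromosome 8, RPS20, RPL7, RPL30 and RPL8, were among the 10, with a median of 0.20, while the other 408 genes of that chromosome had a median of 0.00 and 7.11% of them were higher. These calls were weak. RPL7 was lost when any of K562 replicates 2, 3 or 4 or K562/SSedit-2 replicates 1, 2 or 4 was left out (0.17 to 0.21). RPL30 was lost without K562 replicates 2, 3 or 4 or K562/SSedit-2 replicates 1 or 4 (0.21 to 0.25), and RPS20 without K562 replicates 2, 3 or 4 or K562/SSedit-2 replicate 1 (0.17 to 0.21). RPL41 was lost without K562/SSedit-2 replicate 3 (0.21). RPL8 and RPL37A had adjusted p of 0.12 without K562/SSedit-2 replicate 4 at fold changes of 0.16 and 0.19.

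The only member lower in K562/SSedit-2 than in K562 was RPL7L1, a paralog of RPL7 that acts in ribosome assembly. It was at 557, 531, 530 and 525 CPM in K562 and 453, 435, 463 and 493 CPM in K562/SSedit-2, without overlap. Its log2 fold change was -0.22 (SE 0.057, adjusted p 0.028), and -0.17 and not called without K562/SSedit-2 replicate 2. Among genes not called, RPS29 was at -0.74 (SE 0.30, adjusted p 0.14), and at -0.13 without K562 replicate 1. RPS27 turned from -0.32 (adjusted p 0.64) to 0.47 (adjusted p 0.0020) without that library.

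By subunit, 7 of 45 large-subunit genes were higher in K562/SSedit-2 than in K562 and 0 lower, and 2 of 31 small-subunit genes higher and 0 lower in edgeR's test. Among all tested genes 4.86% were higher and 7.79% lower. At an unadjusted p under 0.05 there were 1 lower on each subunit, DESeq2 called 0 lower on both, and limma voom 0 on both. Without K562 replicate 1 the higher genes were 20 and 12, beside 9.56% of all genes. Without K562/SSedit-2 replicate 4 the higher genes were 3 and 2. With the replicate block the large subunit had 10 higher and 1 lower, beside 6.35% and 10.1% of all genes. No gene of the tunnel, stalk, mRNA channel, 5S particle, X-linked or Diamond-Blackfan anemia lists was called by edgeR. DESeq2 and limma voom called none either, apart from 1 higher gene of the mRNA channel in each, and at an unadjusted p under 0.05 edgeR gave 2, 0, 1, 1, 0 and 1 higher and 0 lower in the order named. Without K562 replicate 1 those 6 lists had 5, 0, 2, 1, 1 and 3 higher genes, and with the replicate block 1, 0, 0, 1, 0 and 1.

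K/VP.5 was also compared directly with K562/SSedit-2. The 3 comparisons share samples, so their values stand side by side and are not independent. In this comparison 41 of the 82 ribosomal protein genes were lower in K/VP.5 and 3 higher, beside 26.2% and 27.8% of all genes, with a median of -0.22. RPL23 alone was past a fold of 2, against 15.8% of all genes. The number past a fold of 2 was 2 without K/VP.5 replicate 1 or K562/SSedit-2 replicate 3, and 0 without K562/SSedit-2 replicate 4, where 41 were lower and 2 higher. Neither K/VP.5 nor K562/SSedit-2 includes K562 replicate 1, which enters only through the filter, the scaling and the shared estimate of the spread. Without both libraries that stood apart, 53 were lower and 4 higher, beside 29.6% and 28.5% of all genes.

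Of the large subunit, 28 of 45 genes were lower in K/VP.5 and 2 higher (median -0.29), 27 and 1 without K562/SSedit-2 replicate 4. Of the small subunit 10 of 31 were lower (median -0.13). The shares of all tested genes were 26.2% lower and 27.8% higher. No small-subunit gene was higher by edgeR, DESeq2 or limma voom, or at an unadjusted p under 0.05. RPL39 was at 213, 180, 148 and 204 CPM in K562/SSedit-2, above all K/VP.5 libraries, with a log2 fold change of -0.91 (SE 0.21). RPL35A, at 561, 539, 504 and 564 CPM in K562/SSedit-2, gave -0.85 (SE 0.091, adjusted p 9.8e-07), and RPL10 and RPS13 both -0.77. RPL19 had -0.74, and RPL23A and RPS15A -0.71. All 7 were clear of overlap between these lines, but they were picked for their large changes, so this adds nothing to those values. Of the tunnel list 8 of 9 genes were lower, and 7 without K562/SSedit-2 replicate 4, when RPL26 moved from -0.49 to -0.46 (adjusted p 0.14).

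RPL13 was the member most raised in K/VP.5 relative to K562/SSedit-2. Its CPM was 1397, 1309, 1140 and 1013 in K562, 1105, 1097, 1028 and 860 in K562/SSedit-2, and 1403, 1219, 1420 and 1444 in K/VP.5. The derived lines did not overlap and gave 0.42 (SE 0.10, adjusted p 0.0022), while K562 overlapped both. RPL7L1 followed with 0.27 (adjusted p 0.0010). RPL5 had 0.13 (adjusted p 0.096), a call lost without any single K562/SSedit-2 replicate (0.11 to 0.13) or without K/VP.5 replicates 1, 3 or 4 (0.05, 0.12 and 0.14).

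The paralogs differed among themselves. RPL39L, a testis-enriched paralog of RPL39, was at 11.99, 10.8, 10.4 and 11.9 CPM in K562 and 7.75, 6.01, 7.62 and 7.15 CPM in K/VP.5, without overlap. It gave -0.66 (SE 0.10) against K562 and -0.54 against K562/SSedit-2, so it was low in the same line as RPL39. RPL22L1, which can take the place of RPL22, was at 15.04, 12.5, 11.2 and 14.8 CPM in K562, 17.2, 16.3, 13.4 and 15.8 CPM in K562/SSedit-2 and 11.8, 8.56, 9.35 and 8.88 CPM in K/VP.5. In K/VP.5 it gave -0.47 (SE 0.12, adjusted p 0.0052) against K562, where the ranges overlapped, and -0.70 against K562/SSedit-2, where they did not. RPL22 itself had 0.05 and -0.21 in these comparisons. RPS27L gave -0.58 in K/VP.5 against K562/SSedit-2 and -0.05 against K562. RPL26L1, at a mean of 28.9 CPM in K562, 29.3 in K562/SSedit-2 and 24.4 in K/VP.5, and RPL3L, at 0.246, 0.270 and 0.303 CPM, were called in none of the 3 comparisons. RPL3 was also called in none, with -0.03, -0.04 and 0.02 in K/VP.5 against K562, K562/SSedit-2 against K562 and K/VP.5 against K562/SSedit-2.

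Genes of ribosome production and translation outside the family were counted by lists for comparison, and the 3 called genes of largest change are named. In K/VP.5 against K562 these counts stand beside 26.1% lower and 26.2% higher of all genes. Of 75 tested mitochondrial ribosomal protein genes, 33 were lower and 4 higher in K/VP.5 against K562, with a median of -0.15. MRPL23 (-1.22), MRPL17 (-1.16) and MRPL43 (-0.91) led them. In K562/SSedit-2 against K562, 7 were lower and 4 higher (MRPS18C 0.69, MRPL2 -0.49, MRPS2 -0.46), beside 7.79% and 4.86% of all genes, and 6 and 8 without K562 replicate 1, or 1 and 3 without K562/SSedit-2 replicate 4. Of the 3 genes just outside the symbol rule, 1 was lower in K/VP.5 against K562 by edgeR and DESeq2, and 0 by limma voom. RPL36AL gave 0.44 in K562/SSedit-2 against K562 and -0.48 in K/VP.5 against K562/SSedit-2. FAU was called in none of the 3 comparisons.

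Of 14 tested translation factors and other TOP mRNAs, 5 were lower and 1 higher in K/VP.5 against K562 (all genes 26.1% and 26.2%), and 3 and 1 without K562 replicate 1. EIF3F (-0.78) and RACK1 (-0.38), which sits on the small subunit, were lower, and the elongation factor EEF1A1 (0.36) higher. Of 35 ribosome assembly genes, 11 were lower and 11 higher (NOP10 -0.68, SBDS 0.39, NHP2 -0.37). Of 13 genes of RNA polymerase I and its factors, 4 were higher and 2 lower (POLR1E 1.34, RRN3 0.68, POLR1F -0.50), and 4 were lower without K562 replicate 1. Of 9 snoRNA host genes, 3 were lower and 2 higher (SNHG12 -0.47, GAS5 0.41, SNHG8 -0.41). Among 7 genes that control TOP mRNAs, 2 were lower and 3 higher, led by RPS6KB2 (-0.81), EIF4EBP1 (-0.59) and RPS6KB1 (0.30).

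In K562/SSedit-2 against K562, where 4.86% of all genes were higher and 7.79% lower, of 14 translation factors 2 were higher and 1 lower (EEF1D -0.24, EEF1B2 0.22, NAP1L1 0.21). The counts were 3 and 1 of 35 for ribosome assembly (GAR1 0.30, RRS1 -0.26, NOP58 0.26), 3 and 1 of 9 for snoRNA hosts (SNHG6 0.41, GAS5 0.39, ZFAS1 0.25), and 0 and 2 of 13 for RNA polymerase I (TAF1C -0.33, UBTF -0.19). Without K562/SSedit-2 replicate 4 these became 0 and 0, 2 and 0, 2 and 0, and 0 and 0. Without K562 replicate 1 translation factors gave 4 and 1 and ribosome assembly 4 and 6. For RNA polymerase I, edgeR at an unadjusted p under 0.05, DESeq2 and limma voom also gave 0 higher. The TOP control list had 0 calls by edgeR, DESeq2 and limma voom, and 1 lower at an unadjusted p under 0.05. In K/VP.5 against K562/SSedit-2, where 27.8% of all genes were higher and 26.2% lower, the higher and lower counts were 3 and 6 for translation factors, 11 and 12 for assembly, 0 and 4 for snoRNA hosts (0 higher also at an unadjusted p under 0.05, with DESeq2 and with limma voom), 6 and 2 for RNA polymerase I, 1 and 1 for TOP control, and 8 and 30 for the mitochondrial ribosome. Without K562/SSedit-2 replicate 4, RNA polymerase I gave 7 and 1, TOP control 2 and 1 and the mitochondrial ribosome 5 and 28.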

How the data were processed

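The RNA-seq counts of all 12 libraries were used as deposited. The authors aligned reads to GRCh38 with HISAT2 and assigned them to genes with featureCounts, according to the submitters' processing notes, and deposited whole-number counts without normalization. How multi-mapping reads and strand were treated is not given in the sources used here. Symbols, types and positions came from GENCODE 44, which held 60401 of the 60671 IDs.

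Analyses used edgeR 4.0.16, DESeq2 1.42.0 and limma 3.58.1 under R 4.3.3, and Python 3.11.15 with pandas 2.3.3, scipy 1.17.1 and matplotlib 3.10.9. Genes passing filterByExpr at a minimum count of 10 were scaled by TMM, fitted in 1 model by line and compared with edgeR's quasi-likelihood F test, with Benjamini-Hochberg adjustment over 18626 genes. Called means an adjusted p under 0.1. Standard errors are the log2 fold change over the square root of F. CPM used TMM-scaled counts in tested genes, and intervals and the floor of 3 counts cover counting error only. The fitting steps were tested on simulated data.

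Members, lists and the naming rule were chosen with earlier results of these data known. Named members are those past a fold of 2, the 8 largest called changes per direction and comparison, the 3 highest and 3 lowest levels per kilobase of merged exons, the paralogs with their partners, and RPL23 and RPS29. Genes named beyond this rule were chosen after their values were seen. Lack of overlap between lines in genes picked for large changes partly follows from that choice. The share of all tested genes without overlap is not given here. RPS4X, RPS24, RPS26, RPS28, RPL12, RPLP1 and other genes of a role are given as parts of their list.

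Replicate numbers come from the labels. Same-numbered libraries of K562/SSedit-2 and K562 deviated together, with correlations of 0.123 to 0.27 (mean 0.188) against a mean of -0.0612 for different numbers, so this comparison was also fitted with the number as a block. Alternatives were other scalings, DESeq2, limma voom, other filters, fits of only the compared lines, the block, each library left out, and an adjusted p under 0.05. Halving K562/SSedit-2 replicate 4, and leaving out both libraries that stood apart, were added after seeing the data.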

Additional observations from a re-analysis of the deposited data

Results flagged for a closer look

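In groups of 4 libraries, the gap between the most extreme library and its nearest neighbour was compared with the range of the group, and gap ratios past the Dixon limit for 4 values are listed. Chance alone puts about 1 in 20 groups past that limit. Of 99 values of the 33 named and tested ribosomal protein genes in the 3 lines, 16 were past it, and of 246 values of all 82 genes, 34 were.

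In K562, replicate 1 was the highest library in all 9 such cases among the named genes. The ratios were 0.938 for RPS27, 0.923 for RPL32, 0.830 for RPL7L1, 0.870 for RPS13, 0.845 for RPS29, 0.858 for RPS15A, 0.910 for RPL26, 0.941 for RPL39 and 0.847 for RPL10. Over all 82 genes, K562 replicate 1 was the highest library in 21 of the 34 cases. In K/VP.5, replicate 1 was highest for RPL22 (0.938), RPS15A (0.944), RPL23A (0.913) and RPL27 (0.857), and replicate 2 lowest for RPL7L1 (0.838). In K562/SSedit-2, replicate 4 was highest for RPL8 (0.890) and replicate 3 for RPL41 (0.877).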

How the results depend on the processing

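Among the 31 called results that the rule on the largest changes selects, 22 stayed called under every alternative run, none of 620 alternatives reversed a direction, and 44 lost the call, 28 of them with 1 library left out. Numbers of called members moved more. In K/VP.5 against K562, the 3 higher genes became 8 with upper-quartile scaling (29 lower beside 31), 5 with limma voom, 7 when genes had to reach 1 CPM in 4 samples, 6 with the replicate block and 8 without both libraries that stood apart. Past a fold of 2 there were 0, 2 and 0 genes with upper-quartile scaling, no filter and the CPM filter, in place of 1. Leaving out each library in turn gave 2 to 7 higher and 0 to 3 past a fold of 2. In K562/SSedit-2 against K562, the 10 higher genes became 6 with no filter, 29 without both libraries and 5 at an adjusted p under 0.05. The 1 lower gene became 9 with no filter and 2 with the block. Single libraries left out gave 5 to 33 higher and 0 to 5 lower. In K/VP.5 against K562/SSedit-2, the 3 higher genes became 5 with upper-quartile scaling and 5 in a fit of only the lines compared, and 0 were past a fold of 2 with upper-quartile scaling. Single libraries left out gave 0 to 2 past a fold of 2. The cause of these shifts was not tested. Where a count, here or above, has no share of all genes beside it, a shift of the family cannot be told from one of all genes. No scaling moved the median of all genes by more than 0.07 on the log2 scale.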
